A study of Homo sapiens with 20 samples.

Results

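Proteasome genes were taken as those whose symbol begins with PSMA, PSMB, PSMC, PSMD, PSME, PSMF or PSMG followed by a number and that have a probe set naming them alone. The rule found 50 genes on 86 probe sets, of 19353 genes measured. Of these, 42 encode subunits, regulators or assembly chaperones of the proteasome (73 probe sets), and 8 match by symbol only. Each gene was read on its brightest probe set (highest mean of the 20 arrays), and genes with a group mean above 4.5 on the log2 scale in at least 1 group were tested, which kept 39 of the 42 proteasome genes and 10834 of all genes. The 3 that did not pass were PSMB8, PSMB9 and PSMA8. PSMA6, PSMB11, PSMC5, PSMD7, PSMD13 and PSME2 have no probe set that names them alone and are not analysed here, apart from probe sets that PSMA6 and PSME2 share with other genes.

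The 20 arrays fell into 4 groups of 5. Induced cells were Flp-In T-REx HEK293 cells, a human embryonic kidney line, that carried a stable, doxycycline-inducible EGFP-ZFP36 transgene and received 1 µg/ml doxycycline for 16 h. Mock cells were the same line with water. Parental cells without the transgene received doxycycline or vehicle. For the arrays of the transgenic line, flasks were pooled within a treatment, GFP-positive cells were sorted from doxycycline flasks and fluorescent cells were excluded from water flasks. The experiment was repeated on separate days. According to the methods, doxycycline flasks were less confluent and held more rounded and floating cells, and the part of this or of the sort in the differences was not tested. The line is a single stable line set against the parental line, so a difference between the lines cannot be told apart from a difference between these particular cultures.

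The 26S proteasome is the main protease of the cytosol and nucleus for ubiquitin-tagged proteins. Its core particle stacks α rings, which form the gate, on β rings, which hold the proteolytic sites, and its regulatory particle consists of a base with a ring of ATPases that unfold substrates and a lid that removes ubiquitin. Dedicated chaperones assemble each part, and the transcription factor NFE2L1 is known for raising proteasome genes together when proteolysis is blocked. ZFP36 (tristetraprolin) binds AU-rich elements in 3′ UTRs and recruits deadenylases to the mRNA.

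The ZFP36 binding sites mapped by crosslinking (PAR-CLIP) in HEK293 cells bear directly on the members, so the short ones are shown. They were mapped with FLAG/HA-tagged ZFP36, in another line than the EGFP-ZFP36 cells on the arrays. In the 1985 sites of the part of the study's site table used here, 3 belonged to members. More of the study's sites were left unread than were read. Of the 3 sites, 2 lay in the 3′ UTR of PSMB2, which encodes a β subunit. The other, of 32 nt, lay in the coding region of PSMB7, whose product holds the trypsin-like site. The PSMB2 sites are given 5′ to 3′ on the minus strand (build hg19), with TATT in capitals. TATT stands for UAUU, which the study lists as a half-site among known ZFP36 elements.
PSMB2 site at chr1:36067599-36067623: ctTATTtcacttaacactaTATTag
PSMB2 site at chr1:36068475-36068502: cccttaaacttaaatttttaaattaatt
The first site held TATT 2 times and the second held none.

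NFE2L1 acts through antioxidant response elements, so promoters of members that moved were searched for TGACNNNGC on both strands, where N is any base. Promoters of 300 bases (250 before and 50 after the gene start, RefSeq, GRCh38.p14) were at hand for 36 of the 42 members. The motif was found in 33.3% of them (12), in 13.6% of all 27305 promoters and in 15.2% of the promoters of genes tested. Of the members called after induction, as described below, it was found in 4 of 9 with a promoter that rose and 1 of 7 that fell, and in 6 of 17 that were not called. A match describes the letters only. The windows below carry the motif in capitals, read along the gene, for every member with a match that was called after induction or between the lines: PSMC4, PSME1, PSME4 and PSMG2 rose after induction, PSMD9 fell and holds 2 matches, and PSMD5 and PSMG1 differed between the lines.
PSMC4 at chr19:39971182-39971210: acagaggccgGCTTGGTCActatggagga
PSME1 at chr14:24136098-24136126: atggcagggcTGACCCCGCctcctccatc
PSME4 at chr2:53971009-53971037: cccggcggctGCAGCGTCAccagcagagc
PSMG2 at chr18:12658689-12658717: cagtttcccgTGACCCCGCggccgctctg
PSMD9 at chr12:121888631-121888659: cgctactcctGCCGGGTCAccacaggcgc
PSMD9 at chr12:121888678-121888706: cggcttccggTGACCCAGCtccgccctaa
PSMD5 at chr9:120843038-120843066: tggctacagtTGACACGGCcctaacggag
PSMG1 at chr21:39183616-39183644: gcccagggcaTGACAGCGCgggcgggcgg
PSMC4, PSME1, PSMG2 and PSMD9 lie on the plus strand, and PSME4, PSMD5 and PSMG1 on the minus strand. In PSMC4, PSME4 and the first window of PSMD9 the motif was on the strand opposite to the gene. The same TGACCCCGC letters stood in PSME1 and PSMG2, 86 and 39 bases before the gene start.

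Levels are deposited log2 GCRMA values and can be compared between groups for 1 probe set, but not between probe sets. They are relative to the RNA put on the array, so less RNA of a gene per cell and fewer cells that express it cannot be told apart. All 5 markers of HEK293 cells that had a probe set passed the filter, and their mean levels summed to 50.2 in induced, 45.7 in mock, 52.3 in parental doxycycline and 52.2 in parental vehicle cells, although PAX2 lay below 4.5 outside induced cells and NEFM read 5.81 in induced and 3.87 in mock cells, against 12.29 in parental doxycycline and 12.27 in parental vehicle cells. None of 4 blood cell markers passed (sum 8.74 in each group). Of 7 fibroblast and endothelial markers, the collagen genes COL1A1 and COL3A1 passed (sum of all 7 28.3 in induced, 23.0 in mock, 24.4 in parental doxycycline and 25.1 in parental vehicle cells), and DCN, LUM, PECAM1, CDH5 and VWF were near background. Hybridization controls averaged 12.19 ± 0.10 on induced and 12.07 ± 0.12 on mock arrays (SD, n = 5, two-sided exact permutation p = 0.143), and poly-A controls added to the RNA averaged 8.80 ± 0.24 on induced and 8.43 ± 0.18 on mock arrays (exact permutation p = 0.0238). The part of these measures in the results was not tested, apart from the centring described below.

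After induction of EGFP-ZFP36, proteasome mRNAs moved in both directions. Of the 39 members tested, 10 rose and 7 fell (limma, Bonferroni-adjusted p under 0.01 over all genes tested), which is 43.6% of them, against 51.9% of all genes tested (28.8% higher and 23.1% lower). Induced and mock arrays did not overlap for 31 of the 39, against 80.0% of all genes. A share called near or under that of all genes says nothing particular about the members. Their median log2 difference was 0.41, against 0.20 over all genes. With arrays centred on the poly-A controls, the median of all genes became −0.16. The lower share of calls over all genes became 65.6%, against 44.5% before, and 3 members rose and 7 fell. The rises no longer called were those of PSMC1, PSMC4, PSMD2, PSMD4, PSMD11, PSME1 and PSMG4 (0.38 to 0.57). With arrays centred on hybridization controls, PSMC4 (0.63) and PSMG4 (0.74) were not called.

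**Figure D1:**
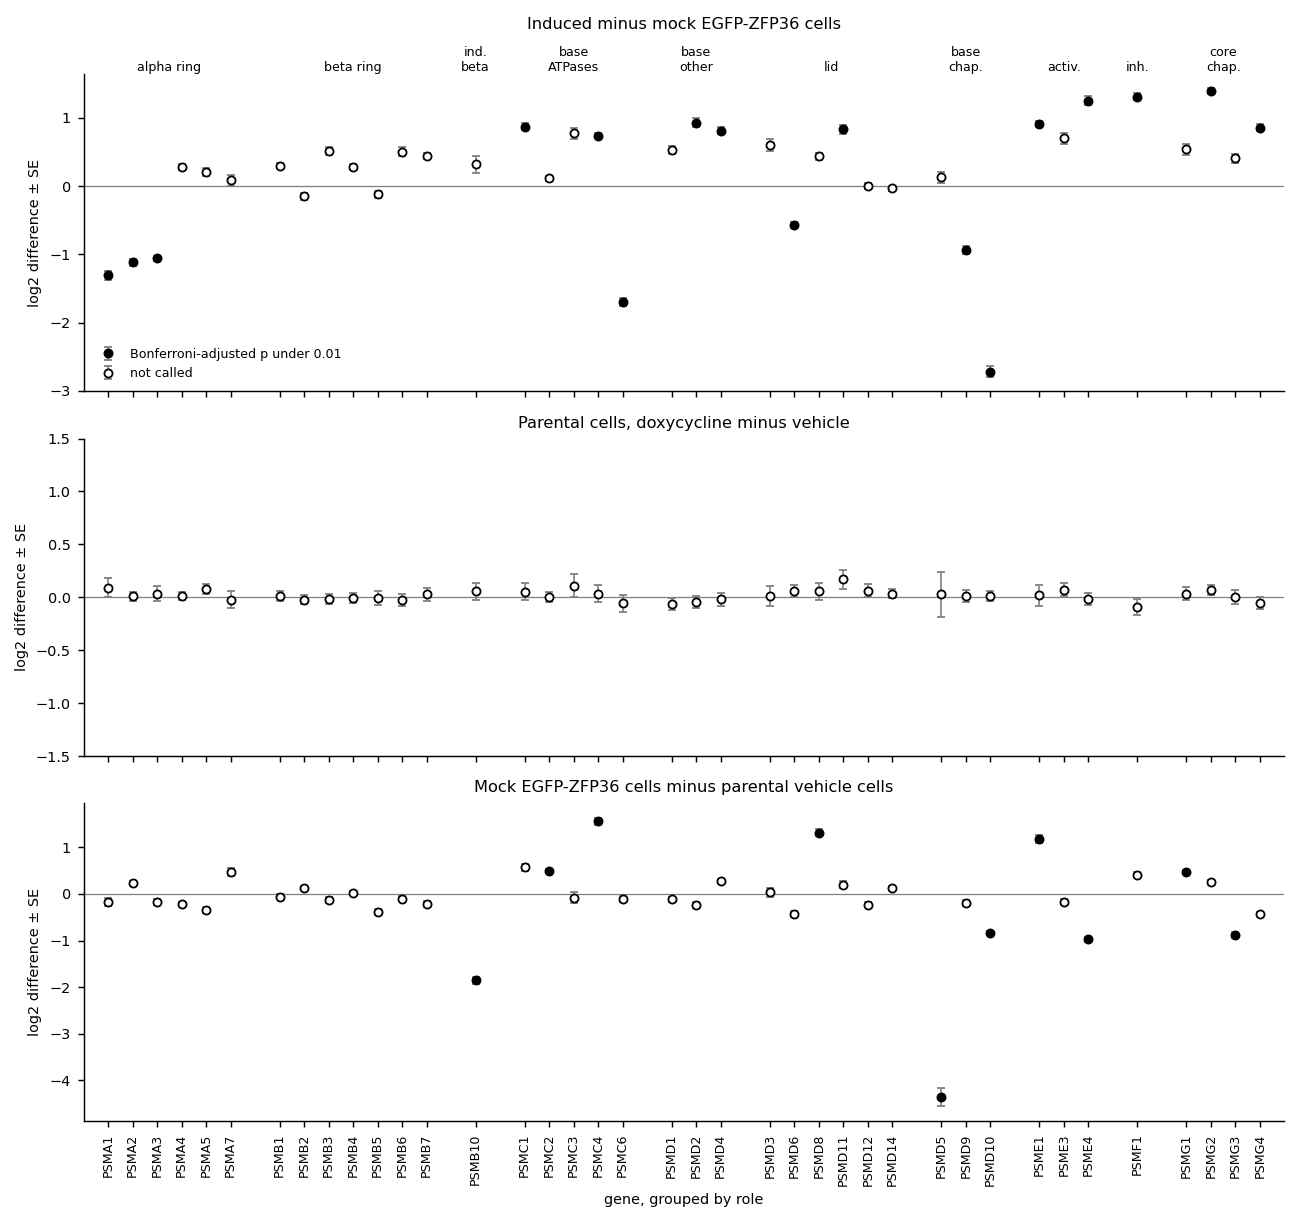
Log2 differences (y axis, ± SE from limma) of the 39 tested proteasome genes (x axis, grouped by role) for induced minus mock EGFP-ZFP36 cells, parental doxycycline minus vehicle cells, and mock minus parental vehicle cells, 5 arrays a group. Filled points passed a Bonferroni-adjusted p under 0.01; after induction PSMD10 was lowest at −2.72 and PSMG2 highest at 1.39, and no member passed in parental cells.

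Among the α subunits, PSMA1, PSMA2 and PSMA3 fell and the other 3 tested were not called. PSMA1 read 11.70, 11.49, 11.51, 11.61 and 11.48 on induced arrays, against 12.88, 13.05, 12.76, 12.86 and 12.77 on mock arrays. All induced arrays lay below all mock ones, and the parental arrays, between 12.95 and 13.35 with doxycycline and between 12.77 and 13.14 with vehicle, lay with the mock ones. The log2 difference was −1.31 (SE 0.07), a 2.47-fold fall (limma, Bonferroni-adjusted p = 1.22e-05). PSMA2 fell by 1.11 (12.85 ± 0.09 in induced and 13.97 ± 0.07 in mock cells) and PSMA3, a subunit whose tail helps close the gate, fell by 1.06 (12.26 ± 0.04 in induced and 13.32 ± 0.03 in mock cells). The call of PSMA2 rests on 1 probe set, since the other tested one differed by −0.20 (limma over 18639 probe sets, Bonferroni-adjusted p = 1). The values for PSMA4, PSMA5 and PSMA7 were 0.29, 0.20 and 0.08. PSMA6, the remaining α subunit of the constitutive ring, is measured only by probe sets that also name PRORP. These read 10.24 ± 0.08 in induced and 8.82 ± 0.11 in mock cells for one, and 14.42 ± 0.06 in induced and 13.80 ± 0.07 in mock cells for the other (exact permutation p = 0.00794 each, the smallest 5 against 5 arrays can give).

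No β subunit was called (0 of 7), and the log2 differences lay between −0.15 and 0.52. For 5 of the 7, induced arrays all lay above mock ones, where 80.0% of all genes did not overlap in either direction. Among the catalytic subunits, PSMB6 (caspase-like site) differed by 0.51 (SE 0.06, limma, Bonferroni-adjusted p = 0.0501), PSMB7 (trypsin-like site) by 0.44 (SE 0.05, adjusted p = 0.0234) and PSMB5 (chymotrypsin-like site) by −0.12 (SE 0.06, adjusted p = 1). PSMB7 read 13.66, 13.67, 13.66, 13.80 and 13.68 on induced arrays, against 13.29, 13.35, 13.19, 13.24 and 13.19 on mock arrays, without overlap. PSMB2 read 12.95, 12.93, 12.94, 13.14 and 12.98 on induced arrays, against 13.09, 13.23, 13.14, 13.12 and 13.10 on mock arrays, and its induced replicate 4 reached into the mock range. The difference for PSMB2 was −0.15 (SE 0.05). PSMB2 carries the binding sites printed above, and a dimmer probe set of it read differently, as given below. The interferon-inducible β subunits were mostly silent: PSMB8 read the lowest value of the table on every array, PSMB9 reached 2.60 at most, and PSMB10 read 8.28 ± 0.26 in induced and 7.96 ± 0.17 in mock cells with overlapping arrays.

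Among the ATPases of the base, PSMC1 and PSMC4 rose and PSMC6 fell, while PSMC2 and PSMC3 were not called. PSMC1 read 13.87, 13.92, 13.85, 13.996 and 13.94 on induced arrays, against 13.04, 13.19, 12.96, 13.04 and 12.999 on mock arrays. Its groups did not overlap, and the log2 difference was 0.87 (SE 0.05, 1.83-fold, limma, Bonferroni-adjusted p = 5.85e-05). PSMC6 read 12.22, 12.21, 12.24, 12.05 and 12.05 on induced arrays, against 13.83, 13.79, 13.91, 13.84 and 13.88 on mock arrays. It fell 3.25-fold (log2 difference −1.70, SE 0.05, adjusted p = 5.66e-08), while its parental arrays stayed between 13.72 and 14.07 in both treatments. PSMC4 rose by 0.74, and PSMC3 differed by 0.77 with more spread (adjusted p = 0.014).

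The non-ATPase subunits of the base, which dock ubiquitin and shuttle proteins, read higher on every induced array than on any mock array (3 of 3) and 2 of them were called, where 80.0% of all genes did not overlap between these arrays and 51.9% were called. PSMD2 read 12.39, 12.28, 12.34, 12.37 and 12.23 on induced arrays, against 11.22, 11.53, 11.40, 11.49 and 11.31 on mock arrays, a rise of 0.93 without overlap (SE 0.06, limma, Bonferroni-adjusted p = 0.000259). The ubiquitin receptor PSMD4 rose by 0.81, and PSMD1 differed by 0.53 (adjusted p = 0.0183).

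Of 6 lid genes tested, PSMD11 rose, PSMD6 fell and 4 were not called. PSMD11, a scaffold subunit, read 13.33, 13.40, 13.19, 13.48 and 13.27 on induced arrays, against 12.48, 12.60, 12.49, 12.54 and 12.38 on mock arrays. The difference of 0.83 (SE 0.06, limma, Bonferroni-adjusted p = 0.000677) was not shared by its other probe set. PSMD6 read 12.42, 12.36, 12.36, 12.48 and 12.35 on induced arrays, against 12.98, 13.02, 12.94, 12.96 and 12.89 on mock arrays, a fall of 0.56 (SE 0.04, adjusted p = 0.000905) without overlap. With the mean of all its probe sets PSMD6 differed by −0.14 and was not called. That mean takes in a probe set near background (2.47 in induced and 2.19 in mock cells), which did not pass the filter. PSMD14, the deubiquitinase of the lid, read 13.01 ± 0.04 in induced and 13.05 ± 0.03 in mock cells, and PSMD12 differed by 0.01. PSMD3 and PSMD8 differed by 0.61 and 0.44 (adjusted p = 0.459 and 0.0125).

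The chaperones that assemble the base held the largest fall among members. PSMD10 (gankyrin), which holds the ATPase PSMC4 during assembly and is also known as an oncoprotein, read 10.33, 10.25, 10.52, 10.21 and 10.04 on induced arrays, against 12.94, 13.06, 13.01, 12.97 and 12.96 on mock arrays. Every induced array lay more than 2 log2 units below every mock one, and the log2 difference was −2.72 (SE 0.08), a 6.58-fold fall (limma, Bonferroni-adjusted p = 2.42e-08). Its second probe set fell by 2.75. PSMD9, which also chaperones ATPases, fell by 0.94 (10.41 ± 0.10 in induced and 11.35 ± 0.04 in mock cells), and PSMD5 was at background in both groups.

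The chaperones of the core particle were higher in induced cells for all 4 members, without overlap of the arrays, and 2 of them were called (against 80.0% of all genes without overlap and 51.9% called). PSMG2, the partner of PSMG1 in the dimer that starts the α ring, read 13.76, 13.68, 13.70, 13.64 and 13.71 on induced arrays, against 12.33, 12.36, 12.23, 12.31 and 12.29 on mock arrays. This was the largest rise among members (log2 difference 1.39, SE 0.04, 2.63-fold, limma, Bonferroni-adjusted p = 4.77e-08). PSMG4 rose by 0.86, and PSMG1 and PSMG3 differed by 0.54 and 0.41 (adjusted p = 0.587 and 0.592). With poly-A centring PSMG4 differed by 0.50 and was not called, like the other members named above for that setting.

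Activators that cap the core particle in place of the regulatory particle read higher on every induced array (3 of 3) and 2 of them were called, where 80.0% of all genes did not overlap and 51.9% were called. PSME4 (PA200) read 10.72, 10.83, 10.67, 11.001 and 10.75 on induced arrays, against 9.61, 9.61, 9.42, 9.61 and 9.44 on mock arrays. On this probe set the rise was 1.25 (SE 0.07, 2.39-fold, limma, Bonferroni-adjusted p = 3.35e-05). It brought induced arrays just above the parental ones, which lay between 10.42 and 10.64. Another probe set of PSME4, the brighter one in mock cells, fell from 10.02 in mock to 8.80 in induced cells (limma over 18639 probe sets, Bonferroni-adjusted p = 0.00396). With the mean of all its probe sets, which takes in a further one near the filter, PSME4 differed by 0.14 and was not called. PSME1 (PA28α) rose by 0.91 (11.09 ± 0.06 in induced and 10.17 ± 0.06 in mock cells). PSME3 (PA28γ) differed by 0.70 (adjusted p = 0.0443) and passed without induced replicate 3 (0.77, adjusted p = 0.00173). PSMF1 (PI31), named for inhibiting the core particle in vitro, read 12.94, 12.89, 13.02, 13.02 and 12.83 on induced arrays, against 11.64, 11.63, 11.64, 11.56 and 11.66 on mock arrays, a 2.49-fold rise without overlap (log2 difference 1.31, SE 0.05, adjusted p = 4.11e-07).

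**Figure D2:**
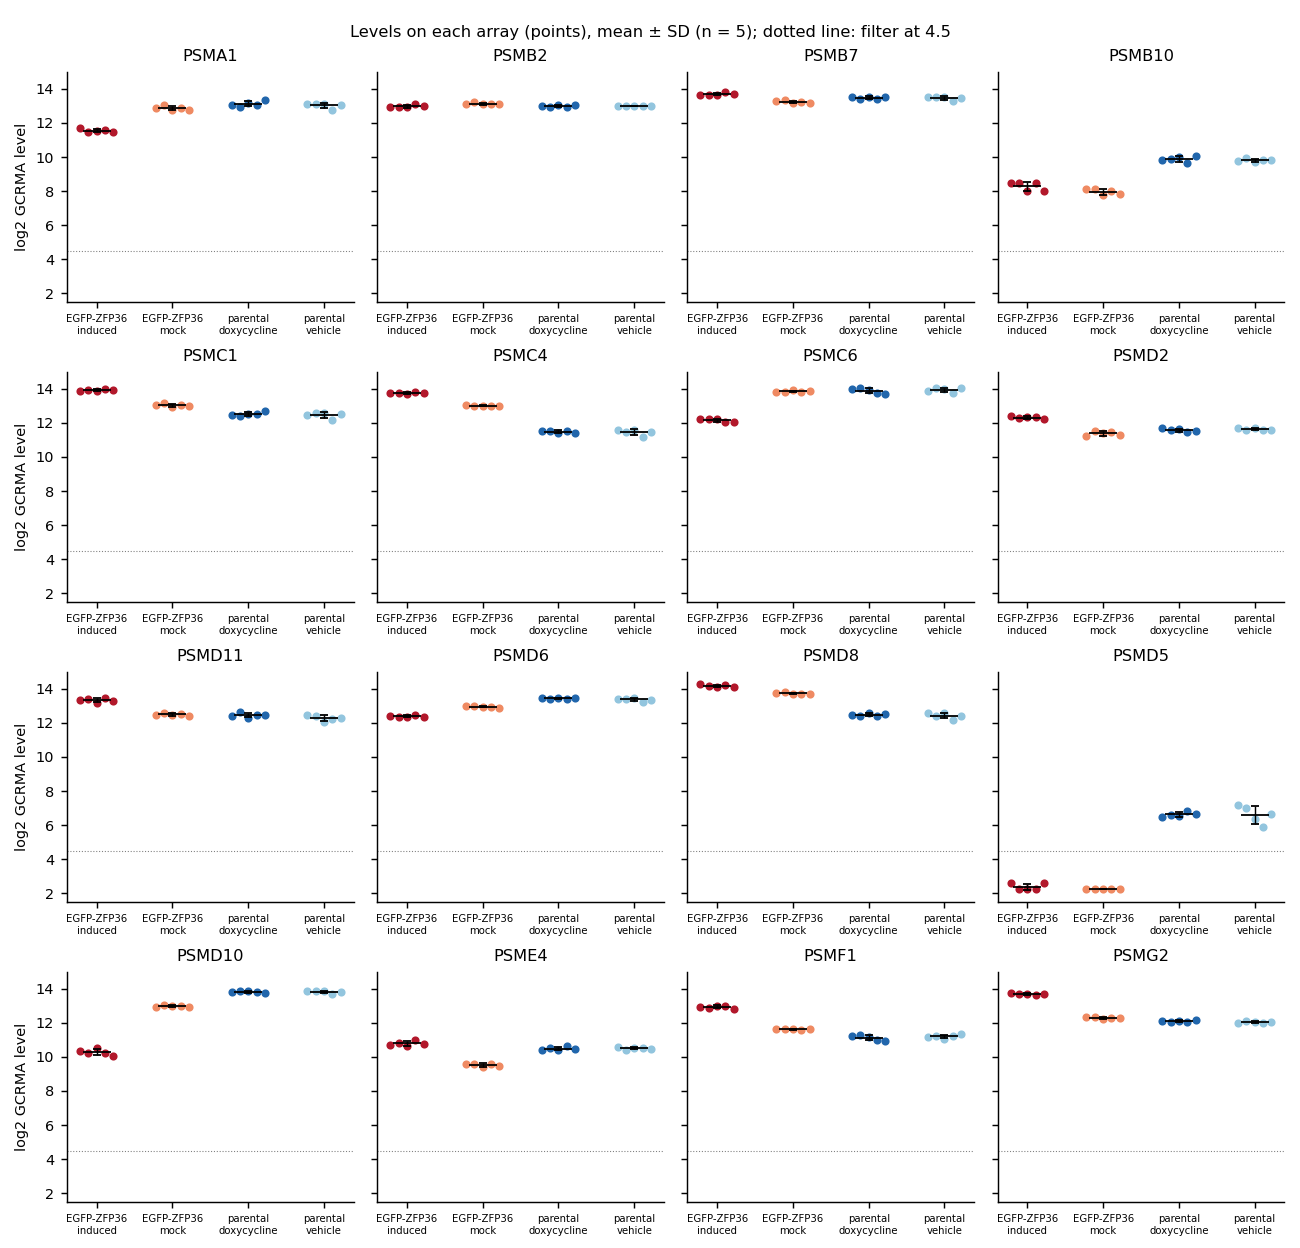
Log2 GCRMA levels (y axis) of 16 proteasome genes on each of the 5 arrays of induced, mock, parental doxycycline and parental vehicle cells (x axis), with mean ± SD; the dotted line marks the filter at 4.5. PSMD10, PSMC6 and PSMA1 lay lower in induced cells than in the other 3 groups, PSMG2 and PSMF1 lay higher, and PSMD5 was near the bottom of the scale in both groups of the EGFP-ZFP36 line.

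The core particle and the regulatory particle were set side by side as medians over their members. The 13 core genes (6 α and 7 β) had a median log2 difference of 0.20 after induction, the same as all genes tested, with 0 higher and 3 lower, and the sign turned with poly-A centring (−0.16). The 14 regulatory particle genes had a median of 0.57, with 5 higher and 2 lower, and the sign turned without the less specific probe sets described below (−0.03). On single arrays, as deviations from the parental vehicle mean, the regulatory median lay between 0.58 and 0.78 in induced and between 0.04 and 0.19 in mock cells, and the core median between 0.00 and 0.15 in induced and between −0.19 and 0.00 in mock cells. Core minus regulatory median was −0.59 ± 0.14 in induced and −0.21 ± 0.04 in mock cells (SD, n = 5). Within the core, 3 α genes lay between −1.31 and −1.06 and the other 3 between 0.08 and 0.29, inside the range of the β genes (−0.15 to 0.52), and no test was made between the rings. The order of the particles depended on the probe sets and on the genes they kept. When probe sets ending in _s_at or _x_at, which can match several transcripts, were left out, the regulatory median became −0.03. Core minus regulatory became 0.27, against −0.37 when the brightest was picked from all probe sets of each gene. With no other tested probe set left, PSMC1, PSMC3, PSMD1, PSMD4 and PSMD12 dropped out of the regulatory particle and PSMA1, PSMA7 and PSMB1 out of the core. The medians of that setting thus covered fewer genes. With poly-A centring the regulatory median was 0.21.

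**Figure D3:**
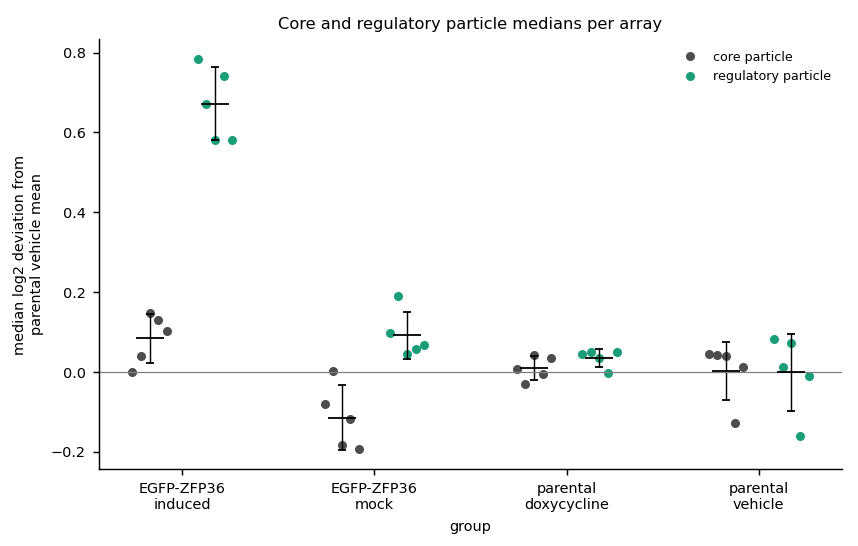
Median log2 deviation from the parental vehicle mean (y axis) of core and regulatory particle genes on each array, by group (x axis), with mean ± SD over 5 arrays. The regulatory median of induced arrays averaged 0.67, against 0.09 in mock cells, and the core median averaged 0.08 in induced and −0.11 in mock cells; the sign of the core difference turned with poly-A centring (−0.16).

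Probe sets of 1 gene often gave different answers. Of 16 members with more than 1 tested probe set, 8 had a probe set more than 0.5 log2 units from the brightest one in the difference between induced and mock cells, and in 5 the sign differed. Such distances were as common among all genes (47.6% of 21 pairs for members and 48.2% of 7801 pairs over all genes). For members, however, the dimmer probe set had the lower difference in 9 of the 10 distant pairs, against 50.4% of distant pairs over all genes. No test was made of this contrast. The mean that picks the brightest probe set includes the induced arrays, for members as for all genes. In mock cells a falling probe set of PSME4 read 10.02, against 9.54 for the brightest. That of PSMD12 read 12.28 in mock cells, against 12.15 for the brightest. The 10 distant pairs came from 8 genes, with more than 1 each from PSMC2 and PSME4. A dimmer probe set of PSME4 (4.54 in induced and 4.17 in mock cells) and that of PSMG4 (4.52 in induced and 4.25 in mock cells) lay near the filter of 4.5.

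PSMB2, which had ZFP36 sites in its 3′ UTR in the part of the site table read, showed the widest gap after PSMA5. Sites of other members beyond that part were not analysed, and a link between sites and gaps was not tested. Its dimmer tested probe set read 4.34, 4.40, 4.39, 4.39 and 4.37 on induced arrays, against 7.41, 7.47, 7.41, 7.44 and 7.72 on mock arrays, while its brightest differed by −0.15. All induced arrays of the dimmer one were under 4.5, so it was at least 7.95-fold lower in induced cells (limma over 18639 probe sets, Bonferroni-adjusted p = 1.52e-09). Parental cells read 6.94 ± 0.09 with doxycycline and 7.12 ± 0.16 with vehicle on that probe set.

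The dimmer probe set of PSMA5 read 5.19, 4.93, 4.87, 4.37 and 5.17 on induced arrays, against 7.995, 7.99, 7.81, 7.90 and 7.91 on mock arrays, a log2 difference of −3.01, against 0.20 for the brightest. For PSMD12, a lid subunit, the other probe set read 9.71, 9.75, 9.87, 9.78 and 9.80 on induced arrays, against 12.26, 12.27, 12.26, 12.28 and 12.35 on mock arrays (−2.50), while the brightest probe set differed by 0.01. PSMC2 differed by 0.11 on its brightest probe set and by −1.82 and −2.32 on the other 2, both called. PSME4 rose by 1.25 on the brightest and fell by 1.22 on another, and PSMD11 differed by 0.83 and −0.60. PSMA2 fell by 1.11 on the brightest and differed by −0.20 on the other, and PSMG4 rose by 0.86 on the brightest and differed by 0.27 on the other, neither of the others being called.

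In the remaining 8 members every probe set lay within 0.5 log2 units of the brightest, though the call differed between the probe sets of PSMD1 (0.53, not called, and 0.64, called) and PSMD9 (−0.94, called, and −0.57, not called). All 4 probe sets of PSMF1 rose, by 1.06 to 1.40, those of PSMD4 rose by 0.81 and 0.89, and those of PSMD10 fell by 2.72 and 2.75. The part of the transcript under each probe set was not looked up, since no probe positions were at hand. The 3′ minus 5′ probe difference of the actin control, a sign of RNA quality, was 1.31 ± 0.13 in induced and 1.52 ± 0.14 in mock cells (exact permutation p = 0.0476), and its part in these gaps was not tested.

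**Figure D4:**
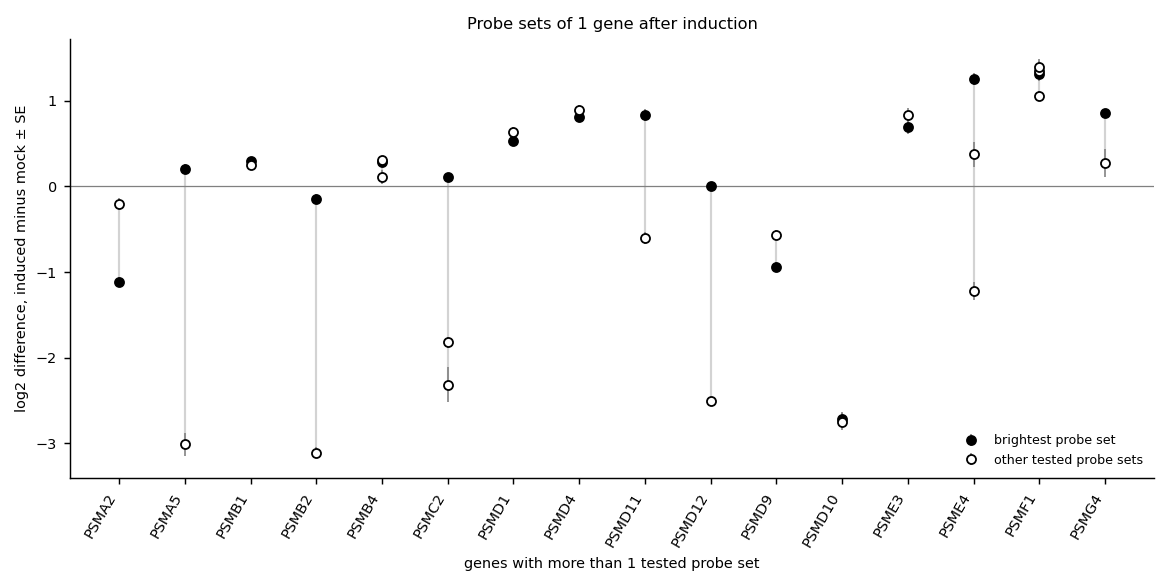
Log2 difference of induced minus mock cells (y axis, ± SE from limma) for every tested probe set of the 16 proteasome genes with more than 1 (x axis). Filled points mark the brightest probe set; PSMA5, PSMB2, PSMC2 and PSMD12 had a filled point near 0 and an open point below −1.8.

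In parental cells, which lack the transgene, no member was called with doxycycline against vehicle (0 of 39, against 0.0% of all genes tested; 0 members had an unadjusted p under 0.05). The log2 differences lay between −0.09 and 0.17, with a median of 0.01, and no member's arrays were apart, against 0.203% of all genes. The largest was PSMD11, at 12.46 ± 0.11 with doxycycline and 12.30 ± 0.17 with vehicle. PSMD10, which fell most after induction, read 13.83 ± 0.06 with doxycycline and 13.82 ± 0.07 with vehicle.

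The test of whether doxycycline acted differently in the 2 lines called 10 members higher and 7 lower (43.6% of 39), against 47.9% of all genes tested (25.8% higher and 22.1% lower). These were the members called after induction, except that PSMD1 took the place of PSMD11. The difference between the responses was −2.73 for PSMD10 (SE 0.09, limma, Bonferroni-adjusted p = 2.16e-13), 1.40 for PSMF1 (SE 0.09, adjusted p = 3.37e-08) and 1.33 for PSMG2 (SE 0.06, adjusted p = 4.99e-11). PSMD1 passed narrowly (0.60, adjusted p = 0.00791) and was lost in 19 of 20 fits without 1 array. PSMC4 was lost without mock replicate 5 or parental doxycycline replicate 3 (0.70 each). PSMB3 passed without mock replicate 2 or parental vehicle replicate 4 (0.56 each), PSMD11 without parental vehicle replicate 3 (0.73) and PSME3 without induced replicate 3 (0.70).

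The uninduced line differed from the parental cells in some members. Of 39, 5 were higher and 5, PSMD5 included, lower in mock than in parental vehicle cells (25.6%), against 24.0% of all genes tested (13.2% higher and 10.9% lower), and arrays did not overlap for 26, against 63.3% of all genes. On the brightest probe sets, no core particle gene of the constitutive rings was called, PSMA2 differing by 0.23. PSMA2 was called higher in mock cells with the mean of its probe sets (0.58, limma, Bonferroni-adjusted p = 0.000827). It was also called once the less specific probe sets were set aside (0.92, adjusted p = 0.000181). The dimmer PSMA5 probe set read 7.92 ± 0.08 in mock and 6.53 ± 0.21 in parental vehicle cells, while the brightest differed by −0.34. The comparison of mock with parental vehicle cells and that of induced with mock cells share the mock arrays.

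The widest difference was that of PSMD5, a base chaperone that passed the filter only through the parental cells. PSMD5 read 2.25, 2.24, 2.24, 2.24 and 2.25 on mock arrays, against 7.15, 6.99, 6.33, 5.87 and 6.67 on parental vehicle arrays. Mock cells were at background, so the level was at least 4.29-fold lower in them. This value is given as a description, because the filter kept PSMD5 through the same difference. Induced cells stayed there as well (2.24 to 2.58), and parental doxycycline cells read 6.48 to 6.85. The other PSMD5 probe set was near background in all 4 groups. PSMB10, the inducible subunit that replaces PSMB7 in immunoproteasomes, read 8.14, 8.10, 7.75, 8.01 and 7.81 on mock arrays, against 9.78, 9.95, 9.73, 9.82 and 9.81 on parental vehicle arrays (3.62-fold lower, log2 difference −1.85, SE 0.08, adjusted p = 2.81e-06).

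Of the members that were higher in the uninduced line, PSMC4 read 13.05, 13.01, 13.02, 13.02 and 12.97 on mock arrays, against 11.58, 11.45, 11.61, 11.16 and 11.47 on parental vehicle arrays (log2 difference 1.56, SE 0.08, 2.95-fold, limma, Bonferroni-adjusted p = 9.39e-06). PSMD8, a lid subunit, read 13.77, 13.81, 13.71, 13.72 and 13.72 on mock arrays, against 12.60, 12.41, 12.56, 12.18 and 12.41 on parental vehicle arrays (1.31, SE 0.07, adjusted p = 3.7e-05). Neither gene's groups overlapped. PSME1 was higher by 1.19, and PSMC2 and PSMG1 by 0.49 and 0.48, but PSMG1 was lost in each of 10 fits without 1 array and PSMC2 in 5 (without mock replicate 1, 2, 3 or 4, or parental vehicle replicate 5). PSME4, PSMG3 and PSMD10 were lower by 0.97, 0.89 and 0.83 in mock cells. Another probe set of PSME4 went the other way, at 10.02 ± 0.06 in mock and 9.51 ± 0.14 in parental vehicle cells. With the mean of all its probe sets PSME4 differed by −0.32 between the lines and was not called.

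Genes around the proteasome moved in both directions after induction. Over 4 lists of such genes, 33 of 55 tested were called, 20 higher and 13 lower, where the share was 51.9% of all genes tested (28.8% higher and 23.1% lower). Among proteasome partners, 5 rose and 6 fell of 15 (median −0.11, against 0.20 over all genes). USP14, a deubiquitinase bound to the base, read 9.91 ± 0.10 in induced and 11.74 ± 0.05 in mock cells, a 3.56-fold fall (limma, Bonferroni-adjusted p = 3.98e-08). UBE3C, a ligase that extends ubiquitin chains at the proteasome, fell 3.18-fold (9.29 ± 0.08 in induced and 10.96 ± 0.10 in mock cells). FBXO7, an F-box protein that binds PSMF1, rose 2.75-fold (12.29 ± 0.07 in induced and 10.83 ± 0.04 in mock cells).

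In the list of the NFE2L1 pathway, 6 rose and 2 fell of 15 tested (median 0.07). NFE2L1 itself rose 2.39-fold (10.97 ± 0.09 in induced and 9.72 ± 0.05 in mock cells, limma, Bonferroni-adjusted p = 1.19e-06). Its relatives fell: NFE2L2, the oxidative stress factor, 2.37-fold (10.48 ± 0.05 in induced and 11.73 ± 0.05 in mock cells) and NFE2L3 more so (5.35 ± 0.10 in induced and 7.35 ± 0.19 in mock cells).

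In ubiquitin supply and shuttling, 4 rose and 3 fell of 12 (median 0.54). The deubiquitinase ATXN3 rose 4.14-fold (10.84 ± 0.09 in induced and 8.79 ± 0.11 in mock cells, limma, Bonferroni-adjusted p = 5.23e-08). The shuttle genes UBQLN4 and UBQLN2, which carry ubiquitin-tagged proteins to the proteasome, went opposite ways, with a 3.11-fold rise and a 2.51-fold fall. In antigen processing and interferon gamma signalling, the use of proteasome peptides for display, 5 rose and 2 fell of 13 (median 0.46). The peptide transporter subunit TAP2 fell 10.7-fold (4.77 ± 0.33 in induced and 8.19 ± 0.09 in mock cells, adjusted p = 8.86e-07), B2M, the light chain of class I molecules, fell 3.43-fold, and the kinase JAK1 rose 3.07-fold.

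Of the 8 genes that match by symbol only, 4 were tested. PSMC3IP, which encodes a partner of meiotic recombinases, fell by 0.48 after induction (10.38 ± 0.03 in induced and 10.86 ± 0.06 in mock cells, limma, Bonferroni-adjusted p = 0.00266) and was higher by 0.73 in mock than in parental vehicle cells. PSME3IP1, an interactor of PSME3, rose by 0.83 (11.25 ± 0.04 in induced and 10.42 ± 0.11 in mock cells). The long non-coding RNA genes PSMD6-AS2 and PSMA3-AS1 differed by 1.11 (adjusted p = 0.0147) and −0.18, and the other 4, also non-coding, read at most 2.39 on any array.

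The spread between replicates was smaller for members than over all genes tested, a comparison not matched for expression level. The median SD over the 39 genes was 0.08 in induced, 0.06 in mock, 0.08 in parental doxycycline and 0.09 in parental vehicle cells, against 0.12 in induced, 0.10 in mock, 0.12 in parental doxycycline and 0.13 in parental vehicle cells over all genes tested. The largest was that of PSMD5 in parental vehicle cells (0.51).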

How the data were processed

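RNA from 20 HEK293 samples was hybridised to Affymetrix Human Genome U133 Plus 2.0 arrays, whose 3′ amplification favours transcript ends. GCRMA was run by the authors, its release not given in the sources used here. Deposited log2 values of 50441 probe sets were used as given, between 2.19 and 16.6. Since 36.6% of them equal the lowest value, levels close to 2.19 are background. The number of arrays, 5 a group, limits the precision.

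The platform annotation gave the gene names: 38070 probe sets name 1 gene, 1423 several, 10886 none and 62 are controls. Of those naming 1 gene, 38018 matched the RefSeq gene table by number and no symbol changed. Genes with a group mean above 4.5 were tested, after the methods. The lmFit and eBayes functions of limma 3.58.1 (R 4.3.3) compared 2 groups at a time, or all 4 for the difference of responses. Calls needed a Bonferroni-adjusted p under 0.01. Fits of single probe sets were adjusted over all 18639 tested probe sets. If no array of the lower group reached 4.5, only a lowest fold is given, computed against 4.5. Single values were also tested with two-sided exact permutation tests (smallest p 0.00794). SDs are over 5 arrays. Python 3.11.15 with numpy 2.4.6, pandas 2.3.3 and matplotlib 3.10.9 made the tables and figures.

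Roles and the 4 related lists were written from textbook knowledge, and the members and lists were chosen with earlier results of these data known. Arrays were printed one by one for the called member with the largest rise and the largest fall in each role, the 2 called members with the largest difference each way between the lines, members with a ZFP36 site and, chosen after their values were seen, 3 dimmer probe sets. From each list the 3 genes with the smallest p were named. ZFP36 site sequences came from the study's site table, of which a part was read, so sites of other members are not analysed here. Promoters are the first listed start of each symbol.

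On simulated data of the 10834 genes for induced against mock cells, the fit called 25 of 67 genes changed by 0.5, 59 of 67 changed by 1 and 66 of 66 changed by 2 on the log2 scale, with 0 calls among 10634 unchanged genes. Alternatives covered the adjustment, the filter, the choice of probe set, centring on control probes, the model and leaving out each array.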

Additional observations from a re-analysis of the deposited data

Results flagged for a closer look

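In 9 of 156 sets of 5 arrays (39 members in 4 groups), 1 array stood apart from the other 4, which is 5.77% of the sets where chance gives about 1 in 20. Parental vehicle replicate 4 was low in 4 of them: PSMA1 at 12.77 (the next array read 13.06), PSMB7 at 13.28 (next 13.49), PSMD3 at 11.18 (next 11.57) and PSMD10 at 13.70 (next 13.82). Induced replicate 4 was high in 3: PSMB2 at 13.14 (next 12.98), PSMB7 at 13.80 (next 13.68) and PSMD1 at 13.04 (next 12.89). PSMD4 was high in induced replicate 1 at 14.37 (next 14.26), and PSMA3 was low in mock replicate 3 at 13.27 (next 13.33).

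The response to doxycycline differed between the EGFP-ZFP36 and the parental line for 17 members (limma, Bonferroni-adjusted p under 0.01 for the difference of responses). It was higher in the EGFP-ZFP36 line for PSMF1 by 1.40, PSMG2 by 1.33, PSME4 by 1.27, PSMD2 by 0.98, PSMG4 by 0.91, PSME1 by 0.89, PSMD4 by 0.83, PSMC1 by 0.82, PSMC4 by 0.71 and PSMD1 by 0.60. The values of the 7 members with a lower response were −2.73 for PSMD10, −1.64 for PSMC6, −1.40 for PSMA1, −1.12 for PSMA2, −1.09 for PSMA3, −0.95 for PSMD9 and −0.62 for PSMD6.

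Probe sets that name a member together with another gene took no part in the comparisons. A pair that names PRORP and PSMA6 read higher in induced than in mock cells by 1.42 and 0.62, and 1 that names MIR7703 and PSME2 by 0.96. Arrays did not overlap in these 3 cases (exact permutation p = 0.00794, the smallest possible). A pair that names C7orf25 and PSMA2 read lower, by −0.91 and −0.77.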

How the results depend on the processing

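In parental cells no member was called under any alternative. Of 3739 values of single members under other settings, 3516 stayed called or not called as before, and 8 changed sign with a call in either fit. Sign changes of values called in neither fit count among the 3516. Leaving out 1 array at a time gave 10 to 11 members higher and 7 lower after induction, 8 to 10 higher and 7 lower for the difference of responses, 3 to 4 higher and 5 lower between the lines, 20 to 21 related genes higher and 12 to 14 lower, a core median of 0.16 to 0.24, a regulatory median of 0.54 to 0.61 and a core minus regulatory value of −0.39 to −0.35. With Benjamini-Hochberg adjustment (p under 0.05), 26 members were higher after induction, 23 in the difference of responses, and 14 higher and 16 lower between the lines. With all 20 arrays in 1 model, 17 were higher after induction. Centred on hybridization controls, 3 members were higher in the difference of responses and 3 between the lines, and the core and regulatory medians were 0.0874 and 0.45, while the median of all genes shifted to 0.08. Centred on poly-A controls, 3 members were higher after induction, 0 higher and 1 lower in the difference of responses, 1 higher and 2 lower between the lines, 11 related genes were higher, and the medians were −0.16 for the core and 0.21 for the regulatory particle. With the mean of all probe sets of a gene, those near background included, 3 members were lower between the lines and the core median was 0.0844. This setting turned the induction values of PSMA5 (−1.40), PSMC2 (−1.34) and PSMD12 (−1.25), and in the difference of responses those of PSMA5 (−1.37) and PSMC2 (−1.35). With probe sets ending in _s_at or _x_at left out, 6 members were higher after induction and 6 in the difference of responses, and 12 related genes were higher. The regulatory median was −0.031, core minus regulatory was 0.27, and the values of PSMC2 (−1.82, and −1.84 in the difference of responses) and PSMD11 (−0.60) turned. Genes with no other tested probe set dropped out of that setting. With a separate spread for each gene and group, an alternative chosen after seeing the data, 5 members were higher in the difference of responses, 1 was higher and 3 lower between the lines, and 7 related genes were lower, while calls over all genes numbered 2902, against 5623. Why these values moved was not tested. In the difference of responses, poly-A centring left PSMF1 at 1.40 and PSMG2 at 1.32, against 1.40 and 1.33 before. Their SE was 0.37 each in that setting, and neither was called.

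The methods describe treated and untreated cells handled together on each day, but neither they nor the labels tie a replicate number to a day, so same-numbered arrays were not taken as pairs: the correlation of their deviations was 0.015 to 0.22 for induced and mock cells (over 0.1 for 4 of 5) and −0.021 to 0.113 for mock and parental vehicle cells, 3 of 5 and 2 of 5 arrays correlated best with their own number. With the replicate block, 9 members were higher and 5 lower after induction, 6 higher in the difference of responses, and 2 higher and 2 lower between the lines, with 3751 calls over all genes after induction. After induction PSMD2 (adjusted p = 0.0311), PSMD6 (0.0642), PSMD9 (0.019) and PSMD11 (0.0111) were then not called and PSMC3 was (0.00745), all at unchanged differences.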
